A study of Homo sapiens with 12 samples.

Results

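The genes described here are 9 transcriptional readouts of transforming growth factor beta (TGF-beta) and bone morphogenetic protein (BMP) signalling: the ligands TGFB1 and TGFB2, the signal transducer SMAD3, the inhibitory SMADs SMAD6 and SMAD7, the co-repressor SKIL, and the inhibitors of DNA binding ID1, ID2 and ID3. They were picked by name, with earlier results of these data known, from the 58347 genes counted by RNA sequencing in A375 cells, an established human melanoma line that carries an activating BRAF mutation. The 12 libraries form 4 groups of 3 replicates: DMSO (vehicle), tretinoin, vemurafenib, and vemurafenib with tretinoin, called the combination. Every label gives a treatment length of 8 h and a dose of 5 µM, the vehicle included, and for the combination it does not say whether that is the dose of each drug. Vemurafenib is an inhibitor of mutant BRAF, the kinase that drives ERK signalling in these cells, and tretinoin is all-trans retinoic acid, the ligand of the retinoic acid receptors. All groups were grown in the same serum-containing medium, and the labels name no added TGF-beta or BMP. The treatments were applied in triplicate to a single cell line, and no label says that the replicates came from separate experiments, so the p-values measure the spread between these samples.

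TGF-beta ligands bind serine/threonine kinase receptors that phosphorylate SMAD2 and SMAD3, whereas BMP ligands act through SMAD1, SMAD5 and SMAD9. The activated SMADs join SMAD4 and enter the nucleus, where they switch on target genes that include their own brakes: SMAD7 and SMAD6 block the receptors, and SKIL (SnoN) represses SMAD-bound genes. The ID genes are classical direct targets of BMP signalling, and their proteins pair with basic helix-loop-helix factors and keep them off DNA. In melanoma, TGF-beta signalling is known for links to invasion, drug tolerance and loss of the pigment cell program. These data measure RNA, not SMAD phosphorylation or secreted ligand.

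Total counts were between 13510235 and 21534377 per library, and 16740 genes passed the filter on low counts, all 9 readouts among them. The ERK targets DUSP6, SPRY4 and ETV5 had log2 fold changes of -6.07, -6.55 and -4.67 with vemurafenib. DHRS3, 1 of 3 retinoid targets looked at, was called higher with tretinoin (2.91) and also with vemurafenib alone (1.74). The other 2, RARB (0.82) and CYP26A1 (0.51), were not called with tretinoin. Of 8 melanocyte lineage markers, SOX10 was at 0 counts in every library, TYR reached at most 1 count, DCT 18 and MLANA 19, while MITF was expressed and was 0.88 higher on the log2 scale with vemurafenib. Annotated exons of SOX10 share 89 bases (2.4%) with POLR2F on the other strand, and fragments there were assigned to neither gene. The annotation release used for counting was not at hand, so whether the 0 counts of SOX10 reflect absent expression was not tested. S100B had 84 to 206 counts per library, S100A1 29 to 56 and PMEL 8 to 25, and none of these was called in any comparison. The lineage label thus rests more on MITF and S100B than on the pigment genes PMEL, MLANA, TYR and DCT in these libraries. Among 9 markers of other cell types, 4 were called higher with vemurafenib (KRT14, PTPRC, VWF and PDGFRB), and the summed level of all 9 was 26.7 to 31.3 CPM (TMM-normalised counts scaled to a common library total) with DMSO, 28.8 to 32.4 with tretinoin, 71.4 to 73.4 with vemurafenib and 61.4 to 68.9 with the combination. The 8 lineage markers summed to 27.9 to 32.8 CPM with DMSO and 26.2 to 30.9 with tretinoin. With vemurafenib their sum was 43.9 to 46.8 CPM, and with the combination 40.2 to 42.2. Of the markers of other cell types, PTPRC was also called higher with tretinoin (1.46). EPCAM and CD3E stayed below 10 counts in every library, and the part of these markers in the results below was not tested. In such bulk RNA, a smaller share of cells expressing a gene and less RNA per cell cannot be told apart.

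Tretinoin raised SMAD3 and SKIL, whereas vemurafenib raised TGFB1, ID1, ID2 and ID3 and lowered SMAD3 and SMAD7. With the combination all of these but ID1 were called, SMAD3 and SKIL in the direction of tretinoin and the others in that of vemurafenib, and SMAD6 was also higher. In this text a gene is called higher or lower where its p-value from edgeR's quasi-likelihood test, adjusted by Benjamini-Hochberg over all 16740 genes, is under 0.05. In tretinoin against DMSO, 2 of the 9 readouts were called higher, against 3.48% of all tested genes, and 0 lower, against 2.2%. At an unadjusted p under 0.05, 3 readouts were higher and 3 lower in that comparison, and DESeq2 also called 2 higher and 0 lower. In vemurafenib against DMSO, 4 were called higher and 2 lower, beside 26.4% and 26.3% of all genes. The combination against DMSO gave 6 higher and 1 lower, beside 27.1% and 26.5%. The vemurafenib and combination shares of called readouts therefore sit beside a background in which more than 50 of every 100 genes were called. Against vemurafenib alone, the combination had 3 readouts higher and 2 lower, in a comparison where 2.27% and 2.2% of all genes were called. Without vemurafenib replicate 1, combination replicate 1 or combination replicate 2, 3 of the 9 readouts were called in place of 5. Against tretinoin alone, it had 4 higher (background 24.1%) and 0 lower (background 25%), with 5 higher and 2 lower at an unadjusted p under 0.05 and 4 and 0 by DESeq2. The median log2 fold change of the 9 readouts was -0.01 with tretinoin, 0.11 with vemurafenib and 0.48 with the combination, beside 0.011, 0.019 and 0.025 over all tested genes. The 3 comparisons against DMSO share the same control libraries. Scaling by total counts alone, without the TMM factors, gave a median log2 fold change over all genes of 0.21 with vemurafenib, 0.19 with the combination and 0.08 with tretinoin, and it lowered the share of lower calls with vemurafenib from 49.9% to 28.6%, with the combination from 49.5% to 31.8% and with tretinoin from 38.7% to 18.7%. For the combination against tretinoin that share went from 51.0% to 39.3%, and for the drug interaction described below from 52.6% to 78.6%. With that scaling the readouts called higher and lower were 3 and 0 with tretinoin, 4 and 2 with vemurafenib, and 8 and 1 with the combination. Of all 16740 genes, it called 758 higher and 174 lower with tretinoin, 6575 and 2628 with vemurafenib, and 6242 and 2916 with the combination.

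**Figure D1:**
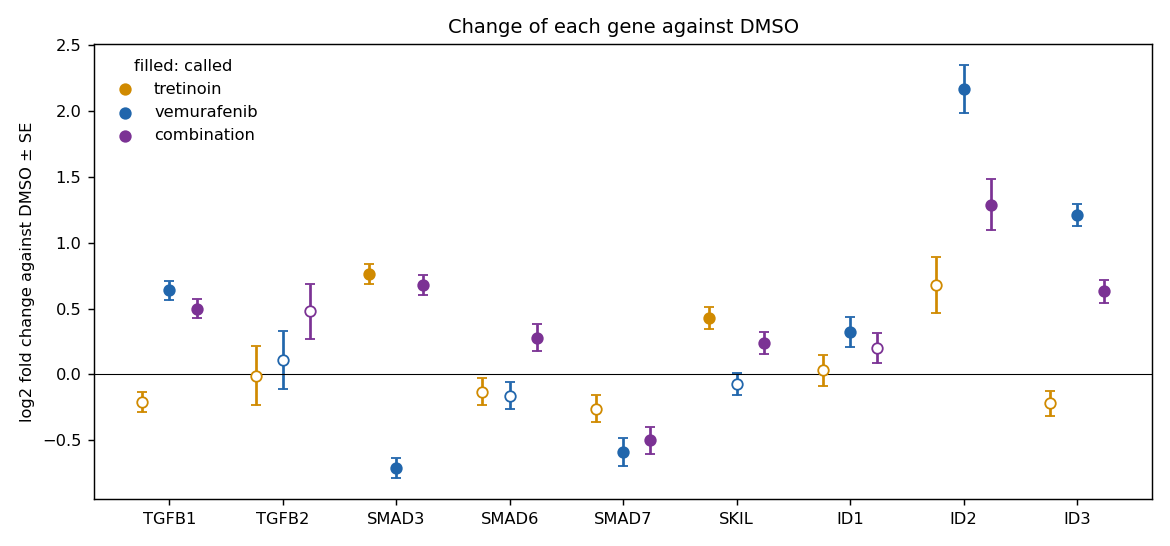
Log2 fold change of each of the 9 readouts against DMSO (y axis, with its standard error from the quasi-likelihood fit as bars) for tretinoin, vemurafenib and the combination, 3 libraries a group; filled points are called at an adjusted p under 0.05 and open points are not. SMAD3 is up 0.76 with tretinoin, down to -0.71 with vemurafenib and up 0.68 with the combination, and ID2 reaches 2.17 with vemurafenib.

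Per kilobase of annotated exon, the readouts spanned more than a 100-fold range in vehicle-treated cells. TGFB1 had the highest level, at 66.5 ± 4.2 CPM per kilobase (SD, n = 3), above 95.2% of tested genes. ID1 followed at 25.6 ± 1.28, SMAD3 at 14 ± 1.12 and ID3 at 8.58 ± 0.52 CPM per kilobase. The replicate ranges of these 4 genes did not overlap. SMAD6 (4.58 CPM per kilobase, 4.37 to 4.89) and SKIL (4.24, 4.07 to 4.4) did overlap, as did TGFB2 (0.701, 0.413 to 0.931) and ID2 (0.597, 0.503 to 0.674), and SMAD7 lay between these pairs at 3.13. Divided by the longest transcript instead, SMAD6 stood at 7.549 and SKIL at 4.594 CPM per kilobase, so their overlap depends on the length used. With vemurafenib the order changed in the middle: ID3, at 19.9 CPM per kilobase, lay above SMAD3, at 8.56, and ID2, at 2.68, lay above SMAD7, at 2.08. With the combination SMAD3, at 22.4, was again above ID3, at 13.2. The unions of annotated exons used as lengths include isoforms that A375 cells may not use.

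**Figure D2:**
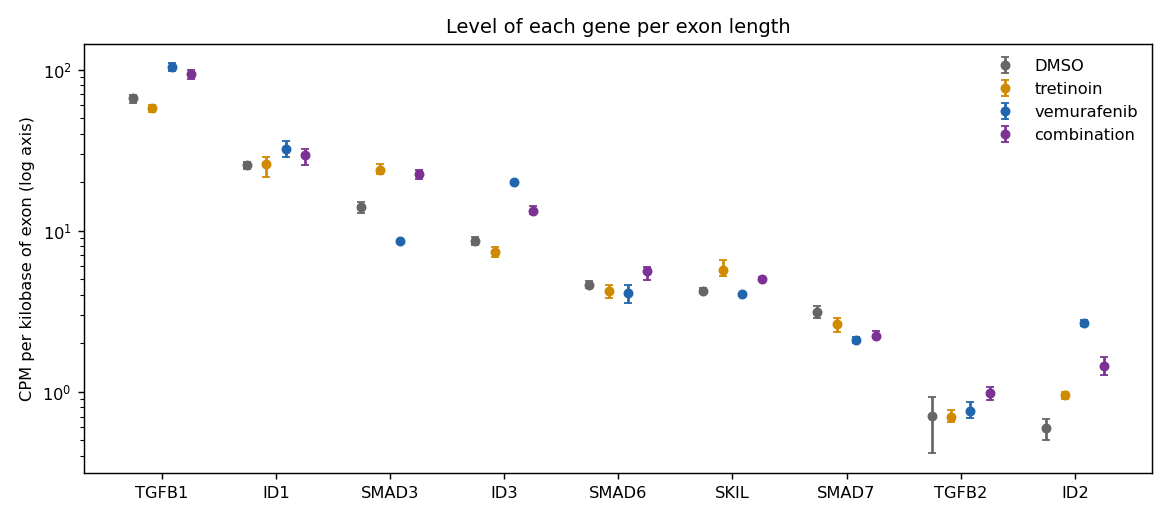
CPM per kilobase of exon (log axis) for each readout in the 4 groups, ordered by the DMSO mean; points are means of 3 libraries and bars run from the lowest to the highest library. TGFB1 stays at the top with 57.6 to 103 CPM per kilobase, and SMAD3 and ID3 change places between DMSO and vemurafenib.

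TGFB1, which encodes the most studied TGF-beta ligand and is kept latent outside the cell, rose with vemurafenib with or without tretinoin. The gene lies at chr19:41301587-41353911 (GRCh38, minus strand). Its level in CPM was 199.6, 222.6 and 223.7 in the DMSO replicates and 196.2, 187.2 and 176.4 with tretinoin. It was 333.0, 319.1 and 353.1 CPM with vemurafenib and 283.8, 306.3 and 320.7 with the combination. All 6 libraries with vemurafenib lay above all 6 without it, and the vemurafenib and combination groups overlapped by a narrow margin. The rise was 1.56-fold with vemurafenib (log2 fold change 0.64 ± 0.073 SE, adjusted p = 1.16e-06) and 1.41-fold with the combination (0.50 ± 0.073, adjusted p = 2e-05). Tretinoin alone gave a log2 fold change of -0.21 with an adjusted p of 0.106, although the 3 tretinoin libraries lay below the 3 DMSO libraries; without tretinoin replicate 1 the value was -0.25 with an adjusted p of 0.0403. The combination against vemurafenib gave -0.14, with an adjusted p of 0.405. Exons of TGFB1 share 215 bases (6.64% of their length) with HNRNPUL1 on the other strand, and fragments there were assigned to neither gene.

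TGFB2, a second ligand of the same receptors, had a low level, with 33 to 122 counts per library. Per kilobase it stood above 25.1% of tested genes with DMSO. Its levels were 2.127, 4.796 and 3.905 CPM with DMSO, 3.959, 3.313 and 3.506 with tretinoin, 3.688, 4.426 and 3.545 with vemurafenib, and 5.007, 4.553 and 5.523 with the combination. The 3 combination libraries lay above every vemurafenib and tretinoin library but overlapped with DMSO, whose own replicates spread more than 2-fold. In no comparison did TGFB2 pass the threshold, with a log2 fold change of 0.48 ± 0.209 (adjusted p = 0.0633) for the combination against DMSO. That comparison gave 0.71 with an adjusted p of 0.0133 without DMSO replicate 2 and 0.21 without DMSO replicate 1. It also passed with total-count scaling (0.64, adjusted p = 0.0147), without the filter on low counts (adjusted p = 0.0443) and with a filter of at least 10 counts in every library (0.0417). The combination against tretinoin, whose groups did not overlap, gave 0.49 ± 0.21 (adjusted p = 0.0612). It passed with total-count scaling (0.028), without the filter (0.0339), with the stricter filter (0.0437), with only the groups compared in the fit (0.0242) and without tretinoin replicate 1 (0.0422). The sign with vemurafenib alone was not stable (0.11 with all libraries, -0.15 without DMSO replicate 1). At this depth a change of the size fitted here could not be told from replicate spread. The gene (chr1:218346235-218444619, plus strand) shares 1371 of 5151 exon bases with the overlapping transcript TGFB2-OT1, so its counts leave out fragments that fall there.

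SMAD3, the receptor-activated SMAD of the TGF-beta branch, had opposite responses to the drugs, and the combination resembled tretinoin rather than vemurafenib in its level. It lies at chr15:67063763-67195195 (plus strand), 280915 bases beyond SMAD6. The 250 bases before its first RefSeq start site (GRCh38.p14, chr15:67065352-67065601, plus strand) are shown because SMAD3 is the readout that all 3 treatments moved. The capitals mark 2 matches to GGCGCC, the GC-rich motif that BMP-activated SMADs can bind.
SMAD3: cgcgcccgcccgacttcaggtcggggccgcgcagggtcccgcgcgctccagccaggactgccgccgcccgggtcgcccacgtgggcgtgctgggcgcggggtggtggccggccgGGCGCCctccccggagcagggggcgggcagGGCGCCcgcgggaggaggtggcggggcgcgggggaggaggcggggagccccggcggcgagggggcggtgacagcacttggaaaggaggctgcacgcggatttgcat
SMAD3 stood at 116.5, 136.4 and 130.2 CPM with DMSO and at 236.4, 205.6 and 206.5 CPM with tretinoin. With vemurafenib it stood at 78.06, 80.11 and 75.95 CPM, and with the combination at 191.6, 215.0 and 205.6 CPM. The vemurafenib libraries were lowest and the DMSO libraries in between, with no overlap, while the tretinoin and combination libraries overlapped. Tretinoin raised SMAD3 1.69-fold (log2 fold change 0.76 ± 0.077, adjusted p = 8.78e-06) and vemurafenib lowered it 1.64-fold (-0.71 ± 0.078, adjusted p = 6.87e-07). The combination was 1.60-fold above DMSO (0.68 ± 0.077, adjusted p = 9.5e-07) and 2.61-fold above vemurafenib (1.39 ± 0.078, adjusted p = 2.59e-09). Against tretinoin alone it differed by -0.08 ± 0.076, with an adjusted p of 0.387. These 4 calls were kept under every alternative tried.

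The inhibitory SMADs did not move together. SMAD6, which mainly restrains the BMP branch, was highest with the combination. SMAD7 was lower than with DMSO in both groups that received vemurafenib. SMAD6 lies at chr15:66702228-66782848 (plus strand). The 250 bases before its start (chr15:66701986-66702235, plus strand) are printed because they hold the palindromic SMAD-binding motif GTCTAGAC (capitals), which starts 12 bases before the start site and is present in 0.202% of the 35116 RefSeq promoter windows of 300 bases, counting both strands.
SMAD6: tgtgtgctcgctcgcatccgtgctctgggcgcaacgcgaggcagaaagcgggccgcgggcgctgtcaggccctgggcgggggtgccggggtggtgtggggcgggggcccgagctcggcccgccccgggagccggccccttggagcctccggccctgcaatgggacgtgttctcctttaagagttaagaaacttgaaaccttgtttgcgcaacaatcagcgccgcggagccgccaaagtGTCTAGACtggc
SMAD6 levels were 37.44, 38.44 and 41.85 CPM with DMSO, 39.22, 36.21 and 32.65 with tretinoin, 30.54, 39.21 and 35.99 with vemurafenib, and 50.35, 50.82 and 41.97 with the combination. The combination libraries lay above all others, with replicate 3 only just above the highest DMSO library, and the other 3 groups overlapped. The combination was 1.21-fold above DMSO (log2 fold change 0.28 ± 0.1, adjusted p = 0.0256), 1.35-fold above vemurafenib (0.44 ± 0.1, adjusted p = 0.0143) and 1.33-fold above tretinoin (0.41 ± 0.101, adjusted p = 0.00272). Only the last of these held with each library left out. Against DMSO the adjusted p was 0.093 without DMSO replicate 1, 0.0694 without DMSO replicate 2, 0.0918 without combination replicate 1 and 0.113 without combination replicate 2. Against vemurafenib it was 0.109 without vemurafenib replicate 1, 0.0694 without combination replicate 1 and 0.0939 without combination replicate 2. Neither drug alone passed the threshold for SMAD6 (-0.13 with tretinoin, adjusted p = 0.488, and -0.16 with vemurafenib, adjusted p = 0.211).

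SMAD7 (chr18:48919853-48952052, minus strand) was a low-count gene, with 173 to 325 counts per library. It measured 14.44, 15.67 and 17.15 CPM with DMSO, 14.37, 13.6 and 11.83 with tretinoin, 10.96, 10.01 and 10.4 with vemurafenib, and 10.78, 11.99 and 10.78 with the combination. Every DMSO library lay above every treated library. The fall was 1.51-fold with vemurafenib (log2 fold change -0.59 ± 0.105, adjusted p = 0.000137) and 1.41-fold with the combination (-0.50 ± 0.104, adjusted p = 0.000616). Tretinoin alone gave -0.26 ± 0.104 and did not pass (adjusted p = 0.152), and adding tretinoin to vemurafenib gave 0.10 ± 0.106 (adjusted p = 0.794). The combination against tretinoin (-0.24, adjusted p = 0.0674) passed when tretinoin replicate 3 was left out (-0.33, adjusted p = 0.0251).

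SKIL, which encodes the SMAD co-repressor SnoN and is itself a rapid TGF-beta target, was raised by tretinoin. The 250 bases before its start (chr3:170357465-170357714, plus strand) hold the cyclic AMP response element TGACGTCA and a match to GGCGCC (capitals, found in 19.2% of all windows), and are printed because SKIL and SMAD3 are the readouts called higher with tretinoin and both have GGCGCC in this window. These are also the most GC-rich stretches of the readouts (80.8% for SMAD3 and 78.4% for SKIL, beside a median of 58.0%). The retinoid receptor motif AGGTCA is in neither, and a link of GGCGCC to the tretinoin response was not tested.
SKIL: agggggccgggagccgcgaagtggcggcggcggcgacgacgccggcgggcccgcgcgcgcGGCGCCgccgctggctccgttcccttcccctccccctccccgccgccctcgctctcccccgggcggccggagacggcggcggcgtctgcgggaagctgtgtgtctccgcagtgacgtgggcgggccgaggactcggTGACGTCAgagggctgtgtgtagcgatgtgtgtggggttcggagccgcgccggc
SKIL measured 34.22, 31.68 and 33.09 CPM with DMSO and 50.88, 40.74 and 41.9 CPM with tretinoin. With vemurafenib it measured 31.42, 31.95 and 30.83 CPM and with the combination 38.57, 40.23 and 37.85 CPM. The tretinoin libraries were highest, the combination libraries next, and the DMSO and vemurafenib libraries overlapped below them. The rise was 1.35-fold with tretinoin (log2 fold change 0.43 ± 0.084, adjusted p = 0.00513), and this call was kept under every alternative. The combination was 1.18-fold above DMSO (0.24 ± 0.083, adjusted p = 0.0232), a call lost without DMSO replicate 2 (0.0741), DMSO replicate 3 (0.0589) or combination replicate 2 (0.0856), and without the filter on low counts (0.0751). It was 1.24-fold above vemurafenib (0.31 ± 0.083, adjusted p = 0.0395), and that call was lost whichever of the 6 libraries was left out, with adjusted p-values of 0.0859 (without combination replicate 3) to 0.172 (without combination replicate 2), of 0.0897 and 0.128 without combination and vemurafenib replicate 1, and of 0.112 and 0.123 without vemurafenib replicates 2 and 3. SKIL lies at chr3:170357678-170396835 (plus strand), with 469 to 866 counts per library. The combination against tretinoin gave -0.19 (adjusted p = 0.0618), which passed without tretinoin replicate 2 (-0.26, 0.0255) or tretinoin replicate 3 (-0.24, 0.0386).

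The ID genes shared 1 direction with vemurafenib, with sizes from 1.25-fold to 4.51-fold, and tretinoin lowered ID2 and ID3 again when it was added to vemurafenib. The 250 bases before the ID2 and ID3 start sites are printed for that shared pattern. None of the 7 motifs searched occurs in either stretch, and a match to AGGTCA, the core motif of retinoid receptors, begins 7 bases after the ID3 start. The ID2 stretch is chr2:8681806-8682055 (plus strand) and the ID3 stretch chr1:23559502-23559751 (minus strand), printed in lower case only.
ID2: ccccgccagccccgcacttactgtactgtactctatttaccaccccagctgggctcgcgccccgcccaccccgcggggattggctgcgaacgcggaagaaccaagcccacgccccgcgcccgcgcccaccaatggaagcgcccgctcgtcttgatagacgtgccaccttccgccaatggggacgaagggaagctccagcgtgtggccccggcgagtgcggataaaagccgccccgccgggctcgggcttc
ID3: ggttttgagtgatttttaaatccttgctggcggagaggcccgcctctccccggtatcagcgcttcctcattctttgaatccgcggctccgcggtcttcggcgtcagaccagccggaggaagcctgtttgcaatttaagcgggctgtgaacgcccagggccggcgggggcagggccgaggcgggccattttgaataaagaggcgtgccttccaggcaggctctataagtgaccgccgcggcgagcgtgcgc
ID2 (chr2:8678845-8684453, plus strand) was the lowest of the 3, with 21 to 128 counts per library. It measured 1.353, 1.486 and 1.108 CPM with DMSO, 1.979, 2.208 and 2.081 with tretinoin, 5.661, 6.158 and 5.889 with vemurafenib, and 3.191, 2.787 and 3.622 with the combination. No groups overlapped, in the order vemurafenib, combination, tretinoin, DMSO. Vemurafenib raised ID2 4.51-fold (log2 fold change 2.17 ± 0.182, adjusted p = 2.54e-08) and the combination 2.45-fold (1.29 ± 0.194, adjusted p = 2.47e-05). The combination was 1.84-fold below vemurafenib (-0.88 ± 0.152, adjusted p = 0.00142) and 1.53-fold above tretinoin (0.61 ± 0.178, adjusted p = 0.00881, and 0.0512 without combination replicate 3). Tretinoin alone gave 0.68 ± 0.213 and did not pass (adjusted p = 0.0706), except with total-count scaling (0.75, adjusted p = 0.045).

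ID3 (chr1:23557918-23559794, minus strand) was also highest with vemurafenib and intermediate with the combination, whereas with tretinoin alone its libraries lay below those of DMSO and those of ID2 above. It measured 16.43, 14.59 and 15.25 CPM with DMSO, 14.22, 12.32 and 13.31 with tretinoin, 35.89, 35.12 and 36.11 with vemurafenib, and 23.17, 22.67 and 25.58 with the combination. The 4 groups did not overlap, with vemurafenib highest and tretinoin lowest. The rise with vemurafenib was 2.31-fold (log2 fold change 1.21 ± 0.085, adjusted p = 2.78e-09) and with the combination 1.54-fold (0.63 ± 0.087, adjusted p = 9.83e-06). Adding tretinoin to vemurafenib lowered ID3 1.5-fold (-0.58 ± 0.081, adjusted p = 0.000164), whereas tretinoin alone gave -0.22 ± 0.092 (adjusted p = 0.164).

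ID1 (chr20:31605283-31606515, plus strand), the ID gene with the highest level, hardly moved. It measured 32.74, 32.29 and 29.81 CPM with DMSO, 26.61, 34.12 and 35.55 with tretinoin, 38.59, 35.46 and 44.23 with vemurafenib, and 39.78, 38.05 and 31.33 with the combination. The vemurafenib libraries all lay above the DMSO libraries, and neighbouring groups in the order of their means overlapped. Only vemurafenib against DMSO passed (1.25-fold, log2 fold change 0.32 ± 0.113, adjusted p = 0.0256). That call was lost without DMSO replicate 3 (adjusted p = 0.106), vemurafenib replicate 1 (0.0518) or vemurafenib replicate 3 (0.14). The combination against DMSO gave 0.20 ± 0.113 (adjusted p = 0.141). That comparison passed with total-count scaling (0.37, adjusted p = 0.0103) and with only the groups compared in the fit (0.23, adjusted p = 0.042).

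**Figure D3:**
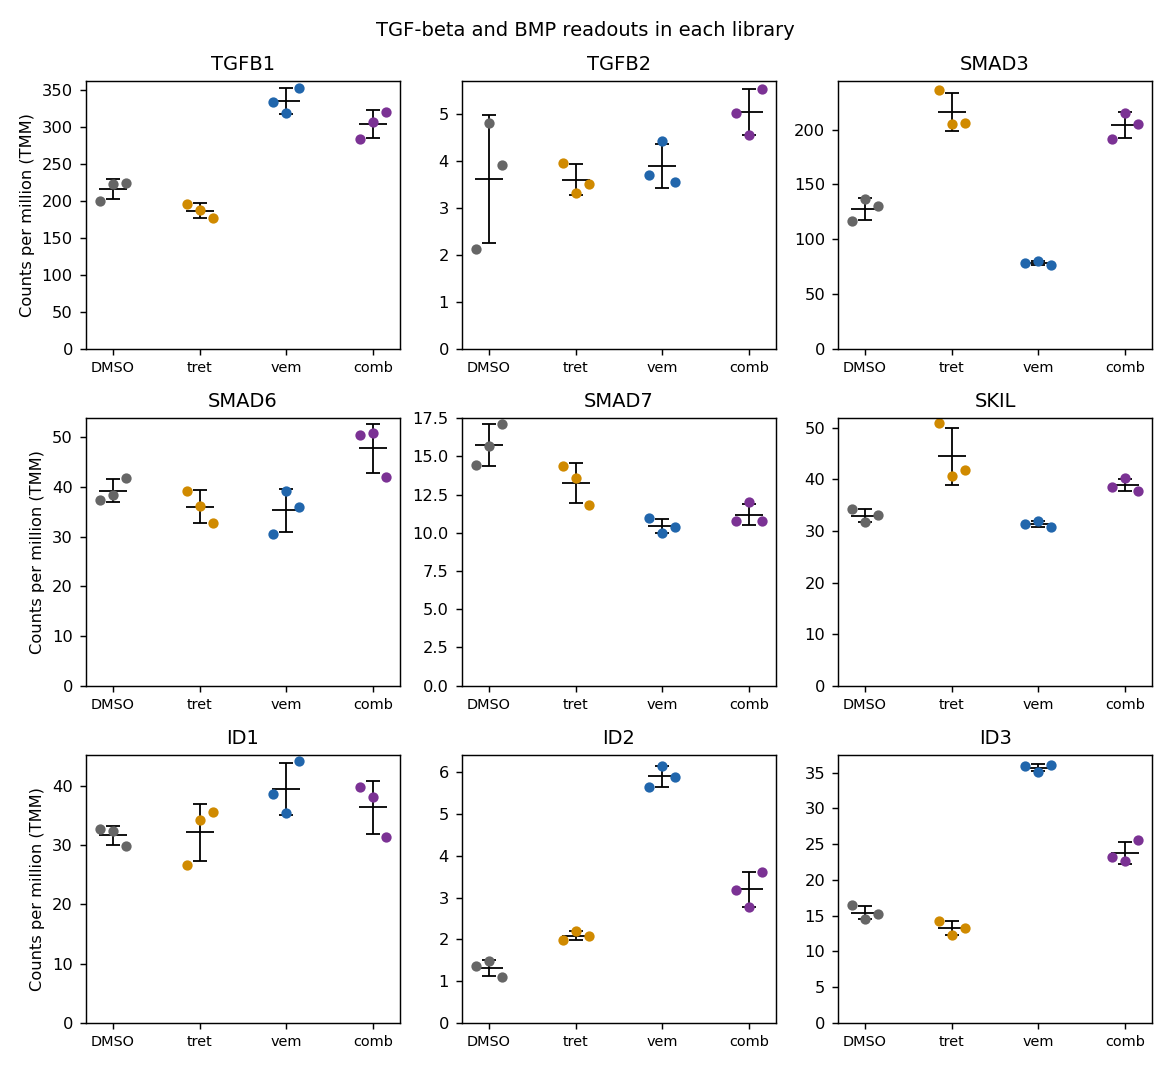
TMM-normalised CPM of the 9 readouts in each of the 12 libraries (points), with the mean and SD of the 3 replicates (bars), for DMSO, tretinoin (tret), vemurafenib (vem) and the combination (comb), each y axis starting at 0. SMAD3 falls to 75.95 to 80.11 CPM with vemurafenib and stands at 191.6 to 215.0 with the combination, and ID2 and ID3 show 4 groups that do not overlap.

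Whether tretinoin acted differently with vemurafenib present was asked with the interaction term, the effect of tretinoin in vemurafenib-treated cells minus its effect in vehicle-treated cells. SMAD3 was called higher and ID2 lower, in a test that called 0.382% of all genes higher and 0.424% lower. For SMAD3 tretinoin gave 0.76 on the log2 scale without vemurafenib and 1.39 with it, a difference of 0.63 ± 0.108 (adjusted p = 0.00865). For ID2 the fitted value went from 0.68 without vemurafenib to -0.88 with it, a difference of -1.56 ± 0.262 (adjusted p = 0.00685). The 0.68 was itself not called (adjusted p = 0.0706), so a rise of ID2 by tretinoin alone is not established. Leaving out each of the 12 libraries in turn gave 0.58 to 0.70 for SMAD3 and -1.67 to -1.44 for ID2, all past the threshold. ID3 pointed the same way as ID2 but did not pass (-0.37 ± 0.123, adjusted p = 0.187). SMAD6 had a difference of 0.56 ± 0.143 with an adjusted p of 0.0798, and it passed with DESeq2 (adjusted p = 0.0226), without the filter on low counts (0.00326) and without tretinoin replicate 1 (0.0143). For the other 5 readouts the difference was between -0.14 and 0.38, with adjusted p-values of 0.273 to 0.796.

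**Figure D4:**
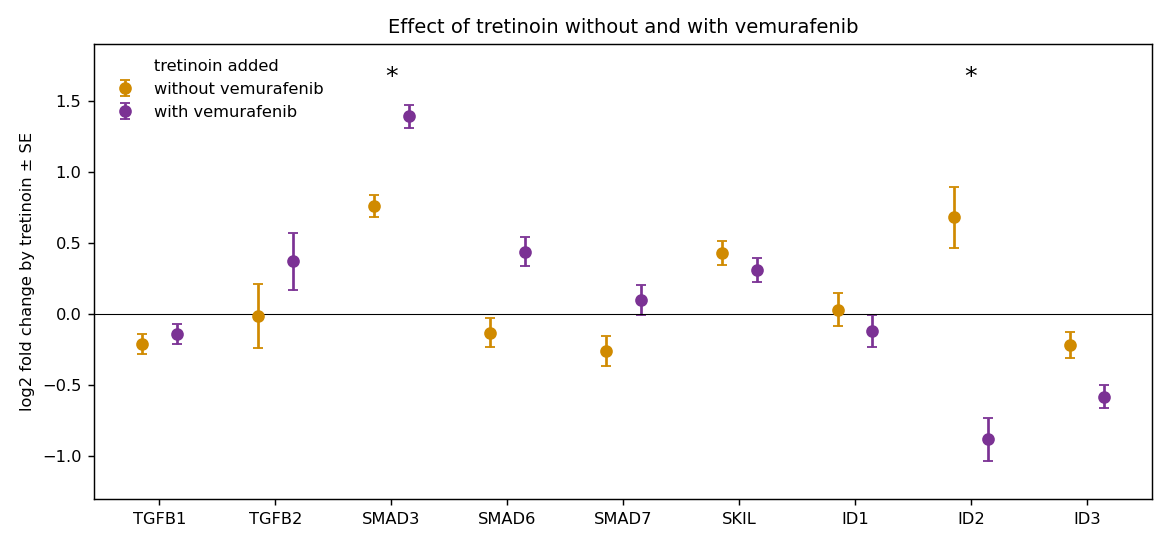
Log2 fold change on adding tretinoin (y axis, with standard errors) for each readout, in vehicle-treated cells (tretinoin against DMSO) and in vemurafenib-treated cells (combination against vemurafenib); stars mark the readouts whose 2 values differ by the interaction test. The values are 0.76 and 1.39 for SMAD3 and 0.68 and -0.88 for ID2.

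The tested genes most like each readout were found by the distance between their 3 log2 fold changes against DMSO. SMAD3 and ID2 had no close neighbour. The nearest genes to SMAD3 were HOXA-AS2, C15orf56 and BHLHE40, at distances of 0.31, 0.321 and 0.339 on the log2 scale, and the nearest to ID2 were WNK3, PRICKLE2 and RPL22P24, at 0.28, 0.346 and 0.382. Closest to ID3 were SPEG, LPP-AS2 and PANO1, at distances of 0.1 to 0.125. The other 6 readouts had neighbours within 0.102: SHC2, MYL5 and RPL23AP7 for TGFB1, ZNF287, MOSPD1 and FABP6 for TGFB2, LINC00894, CIRBP-AS1 and CFAP69 for SMAD6, NME1, EIF5B and GLRX5 for SMAD7, XCL1, VAT1L and HERC2P8 for SKIL, and PIGN, MTM1 and TAF1 for ID1. This likeness is over 3 values per gene that share their DMSO libraries.

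A wider list of 88 genes of the same pathways, 71 of which were tested, showed where the 9 readouts sit. With tretinoin 10 were called higher and 6 lower (background 3.48% and 2.2%), with vemurafenib 19 and 29 (26.4% and 26.3%), with the combination 21 and 28 (27.1% and 26.5%), and with the combination against vemurafenib 7 and 7 (2.27% and 2.2%). In the combination against tretinoin 16 were higher and 34 lower (24.1% and 25%), with a median log2 fold change of -0.22 beside 0.017 over all genes. The median of the list was 0.07 with tretinoin, -0.05 with vemurafenib and -0.06 with the combination, each against DMSO. With total-count scaling the counts were 10 and 4, 26 and 25, and 27 and 25 for the comparisons against DMSO, and 17 and 28 for the combination against tretinoin. The shares above do not apply to that scaling. Of all 16740 genes, it called 758 and 174, 6575 and 2628, 6242 and 2916, and 5051 and 3271 in the same order. Without DMSO replicate 2 the tretinoin comparison gave 10 calls in all.

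Among the TGF-beta and activin ligands, a group listed here together with LEFTY1 and LEFTY2, 4 of 6 tested genes rose and 1 fell with vemurafenib, beside 26.4% and 26.3% of all genes. The antagonist LEFTY1 is 1 of the 4. INHBA, the activin A subunit, fell by 1.04 on the log2 scale with the combination, and INHBE rose by 2.84. LEFTY1, an antagonist of nodal signalling, was higher with each treatment (log2 fold changes 1.46, 1.38 and 2.21 with tretinoin, vemurafenib and the combination), from 9 to 13 counts per library with DMSO to 51 to 74 with the combination, and 46.6% of its exon bases overlap another annotated gene. Of 7 tested BMP ligands, 2 rose and 4 fell with vemurafenib, beside the same 26.4% and 26.3%. BMP6 rose with tretinoin (0.53 ± 0.10, adjusted p = 0.00404), fell with vemurafenib (-1.74 ± 0.12) and was higher with the combination than with vemurafenib (0.79 ± 0.12, adjusted p = 0.000462), but unlike SMAD3 it stayed below DMSO (-0.95 ± 0.11, adjusted p = 9.5e-07) and below tretinoin (-1.48 ± 0.10) with the combination. BMP2 fell by 1.11 with the combination, while BMP4 (1.19) and BMP5 (2.08) rose from at most 10 counts per library with DMSO. BMP5 had 2 to 7 counts with DMSO, 1 to 3 with tretinoin, 33 to 42 with vemurafenib and 15 to 27 with the combination. It passed the filter on low counts only through the groups with vemurafenib, where it was high, so its being called higher there carries little weight.

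Of 11 tested receptors, 1 rose with tretinoin, beside 3.48% of all genes, and 3 rose and 2 fell with vemurafenib, beside 26.4% and 26.3%, a share near the background. TGFBR2, the ligand-binding TGF-beta receptor, rose with tretinoin (0.47 ± 0.09, adjusted p = 0.00508) and fell with vemurafenib (-0.73 ± 0.10) and the combination (-0.58 ± 0.09). The co-receptor ENG fell by 0.64 with the combination and the co-receptor TGFBR3 rose by 0.60. Of the 5 other SMADs, 0 were called with tretinoin or vemurafenib, with 0 at an unadjusted p under 0.05 and 0 by DESeq2, and 1, the low-count SMAD9, rose with the combination (1.15 ± 0.32, adjusted p = 0.00623). SMAD2, the close relative of SMAD3, had log2 fold changes of 0.01, -0.04 and -0.05 with tretinoin, vemurafenib and the combination.

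Of 12 tested latency proteins and extracellular antagonists, 2 rose and 7 fell with vemurafenib, beside 26.4% and 26.3% of all genes. FST, the activin-binding protein follistatin, went from 424.8, 570.0 and 513.3 CPM with DMSO to 18.33, 17.9 and 22.47 with vemurafenib and 14.91, 15.8 and 15.53 with the combination, log2 fold changes of -4.69 ± 0.11 and -5.03 ± 0.12. The BMP antagonist NOG fell with both (46 to 63 counts per library with DMSO, 2 to 8 with vemurafenib and 3 to 7 with the combination). THBS1, an activator of latent TGF-beta, fell with tretinoin (-0.71), vemurafenib (-1.35) and the combination (-2.08), and LTBP3, which stores latent TGF-beta in the matrix, rose with tretinoin (0.68 ± 0.07, adjusted p = 8.78e-06). Of the 8 intracellular regulators tested, 4 fell and 0 rose with vemurafenib, as did the same numbers with the combination, a share of called genes near the background (26.4% higher and 26.3% lower with vemurafenib, 27.1% and 26.5% with the combination), with 0 higher at an unadjusted p under 0.05 and 0 higher by DESeq2 in each. With the combination SMURF2, a ubiquitin ligase for SMADs and receptors, fell by 1.01, the co-repressor TGIF1 by 0.92 and SKI, the relative of SKIL, by 0.58. PMEPA1, a feedback inhibitor that traps SMAD2 and SMAD3, rose with tretinoin (0.84 ± 0.07, adjusted p = 9.82e-07), fell with vemurafenib (-0.79 ± 0.07, adjusted p = 6.21e-08) and was 0.88 ± 0.07 higher with the combination than with vemurafenib (adjusted p = 3.49e-07).

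Target genes were split. Of 13 tested TGF-beta targets, 4 rose and 1 fell with tretinoin (3.48% and 2.2% of all genes), and 5 rose and 7 fell with vemurafenib (26.4% and 26.3%). BHLHE40, a transcriptional repressor, stood at 18.3, 16.89 and 16.78 CPM with DMSO, 34.97, 31.97 and 29.36 with tretinoin, 10.23, 11.59 and 12.62 with vemurafenib and 19.53, 24.53 and 23.63 with the combination. It was thus called in the same directions as SMAD3 in each comparison against DMSO and against vemurafenib, and unlike SMAD3 it was lower with the combination than with tretinoin (-0.50 ± 0.10, adjusted p = 0.000488). ANGPTL4 rose with tretinoin (1.87 ± 0.15) and fell with vemurafenib (-4.43 ± 0.24), and SNAI2, a transcription factor of mesenchymal and neural crest cells, rose with vemurafenib (3.54 ± 0.20). PTHLH, a secreted hormone-like protein, fell by 1.54 with the combination. COL1A1 rose with vemurafenib (1.30 ± 0.16) and was lower with the combination than with vemurafenib (-0.68 ± 0.15, adjusted p = 0.0112, and 0.0635 and 0.0589 without vemurafenib replicate 1 and combination replicate 3).

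Of the 71 tested genes of the wider list, the interaction called 2 higher and 1 lower, beside 0.382% and 0.424% of all genes. With a term for replicate number in the fit it called 1 higher and 1 lower, beside 39 and 36 of all 16740 genes. CTGF, the matricellular TGF-beta and YAP target, fell with vemurafenib (-1.11 ± 0.09) and was 0.80 ± 0.09 higher with the combination than with vemurafenib, a difference between tretinoin effects of 1.04 ± 0.13 (adjusted p = 0.000854). JUNB, an AP-1 subunit, had a difference of 0.62 ± 0.12 (adjusted p = 0.0238), lost without DMSO replicate 2 (0.0817), any vemurafenib replicate (0.0815, 0.0711 and 0.0659) or combination replicate 1 or 2 (0.0777 and 0.061). ATOH8, a basic helix-loop-helix factor and BMP target, had a difference of -1.13 ± 0.18 (adjusted p = 0.00565), from log2 fold changes of 1.46 with tretinoin, 1.54 with vemurafenib and 1.87 with the combination. The other named BMP targets, the homeobox genes MSX1 and DLX2, fell with the combination (-1.37 ± 0.08 and -1.27 ± 0.10), unlike ID2 and ID3. Among the E proteins that ID proteins bind, TCF4 and TCF12 rose with the combination (1.49 ± 0.10 and 0.48 ± 0.11) and TCF3 fell (-0.68 ± 0.07). ID4 was not called, with log2 fold changes of 0.70, -0.45 and -0.88 with tretinoin, vemurafenib and the combination.

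**Figure D5:**
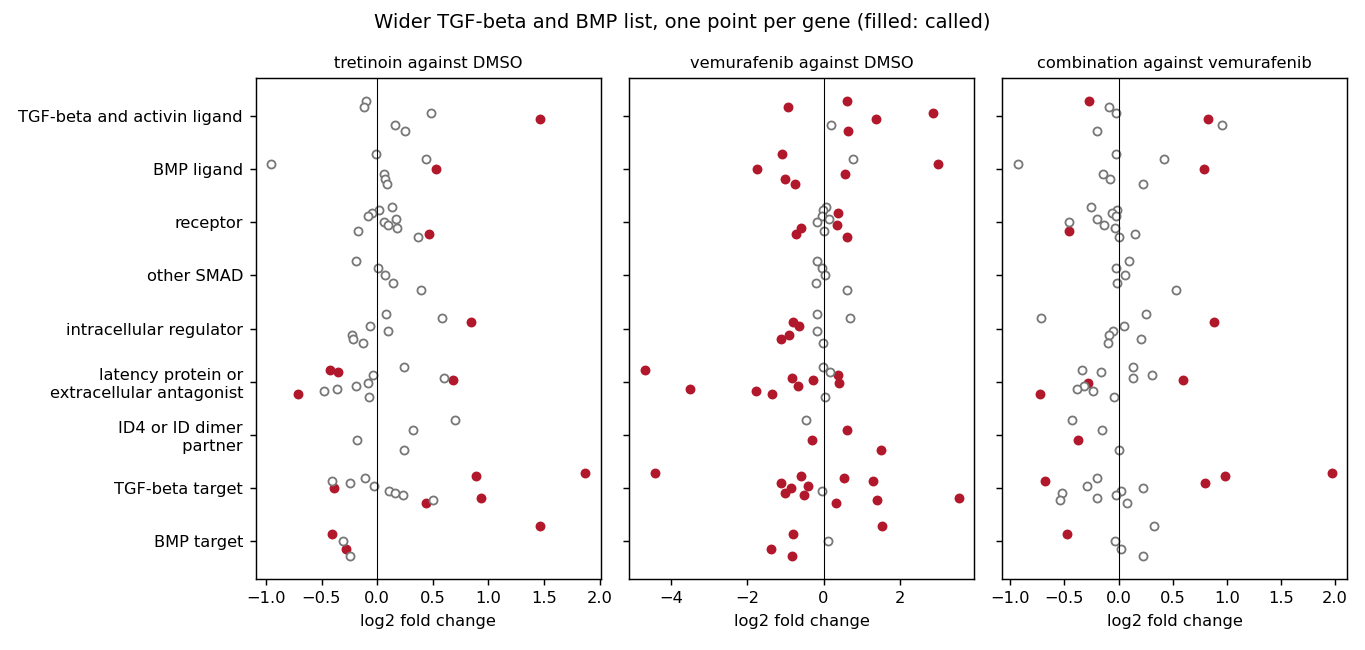
Log2 fold change (x axis, a separate scale in each panel) of the 71 tested genes of the wider list, grouped by role, for tretinoin against DMSO, vemurafenib against DMSO and the combination against vemurafenib; filled points are called. With vemurafenib FST reaches -4.69 and the TGF-beta target ANGPTL4 -4.43, and the 5 other SMADs hold no filled point in any panel.

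In the promoter windows of the 9 readouts, 250 bases before to 50 after the RefSeq start nearest the gene's annotated 5' end, matches to the searched motifs were few. Both strands were searched, and each motif's share is over all 35116 RefSeq windows. The SMAD box CAGACA (16.9% of windows) was found in TGFB2, 53 bases before the start, GTCTAGAC (0.202%) in SMAD6, GGCGCC (19.2%) in SMAD3 and SKIL, AGGTCA (13.8%) in ID3, and TGACGTCA (1.85%) in SKIL. The AP-1 motif TGACTCA (4.95%) and the ETS core CCGGAA (17.2%) were found in none of these 9 windows. RefSeq lists 5 windows for SMAD3 and 3 for SMAD7, and those farther from the 5' end were left out. The GC content of the 250 bases was highest for SMAD3 (80.8%), SKIL (78.4%) and TGFB1 (76.8%) and lowest for TGFB2 (50.4%) and SMAD7 (48.0%), beside a median of 58.0% over all windows. A match describes letters in the window and says nothing about binding.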

How the data were processed

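The data are 12 RNA-seq libraries of A375 cells, grouped and numbered by the sample titles. The files the authors deposited hold raw, unnormalized fragment counts for each gene, made from poly(A)-selected directional paired-end libraries with STAR 2.5.3a on GRCh38.p10 and GENCODE 27; fragments were counted in union mode with the strand ignored, so those touching exons of 2 genes, on either strand, count for neither. Raw reads were not analysed here. The genes, the wider list and the markers were chosen with earlier results of these data known.

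Counts were filtered with filterByExpr, TMM-normalized and fitted to all 12 samples in edgeR 4.0.16 (R 4.3.3), with glmQLFit and glmQLFTest and a term per group; the standard error is the log2 fold change divided by the square root of F. Benjamini-Hochberg adjustment was done per comparison, and 0.05 was the threshold. The fit was tested on simulated data in which few genes changed, in the combination only, so that test does not cover changes as wide as those called here. Total counts of 13510235 to 21534377 set the precision, which is lowest for TGFB2 and ID2. Alternatives were DESeq2 1.42.0, its size factors, total counts, other filters, only the groups compared, a replicate block, leaving out each library, and a threshold of 0.1. Replicates differed by more than counting noise, with a chi-square per degree of freedom of at least 2.688, and none was counted as a duplicate.

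All 9 genes were named by choice. Of the wider list, those named had the up to 3 largest changes per role among calls for the combination, or were among the up to 10 largest calls with tretinoin, for the combination against vemurafenib or in the interaction. Lengths, positions and overlaps come from GENCODE 29, a later release than the counting used, and promoters from RefSeq (GRCh38.p14), where all 9 genes matched. A search with blastn 2.17.0 for stretches of at least 150 bases at 98% identity found only the overlapping genes TGFB2-OT1 and AC087482.1 (SMAD3). Other steps used Python 3.11.15 and pandas 2.3.3.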

Additional observations from a re-analysis of the deposited data

Results flagged for a closer look

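The effect of tretinoin differed between vemurafenib-treated and vehicle-treated cells for SMAD3, by 0.63 on the log2 scale, and for ID2, by -1.56, by the interaction test. Of the wider list, CTGF (1.04), JUNB (0.62) and ATOH8 (-1.13) differed in the same way. SMAD3, CTGF and JUNB were higher and ID2 and ATOH8 lower than the sum of the single-drug effects on this scale. Groups of 3 are too small for a search for libraries far from the others.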

How the results depend on the processing

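Of 2435 log2 fold changes under the alternatives, 2315 kept their direction and their side of the threshold. Another 81 were no longer past it, 25 newly passed it and 14 changed sign. The threshold of 0.1 recomputed no value and could only add calls: it gave 165 of those kept and 6 of those newly passing. The sign changes were in values that did not pass: with total counts alone TGFB1 in the interaction (-0.04), TGFB2 with tretinoin (0.06), SMAD3 for the combination against tretinoin (0.01), and SMAD6 (0.04) and SKIL (0.12) with vemurafenib; for TGFB2 with libraries left out, -0.27 to 0.22 with tretinoin and -0.15 to 0.34 with vemurafenib; and for ID1 with tretinoin, -0.05 to 0.14. The cause was not tested. Leaving out 1 library gave 3 to 4 readouts called for the combination against vemurafenib, where 5 were called with all, and 10 to 18 of the wider list with tretinoin, where 16 were. At a threshold of 0.1, 7 readouts were called for the combination against tretinoin, and 5 genes of the wider list in the interaction. With the replicate block, 4 readouts were called for the combination against vemurafenib, SKIL being lost (adjusted p = 0.0634). Over all genes the interaction then called 39 higher and 36 lower, against 64 and 71 without the block and 126 and 150 by DESeq2. Libraries with the same number did not deviate together (18 pairs, correlations of -0.1429 to 0.08722, 0 over 0.1). Levels per kilobase over the longest transcript moved beyond 1 SD for 6 of the 9 readouts. Counts under about 130 per library limit TGFB2 and ID2.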
